A study of Sus scrofa with 8 samples.

Results

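The genes described here are 10 genes of interleukin-6 family signalling, measured by RNA sequencing in left ventricular tissue of 8 pigs. They were chosen by name and comprise the cytokines IL6 and LIF, the receptor chains IL6R, IL6ST, OSMR and LIFR, the signal transducer STAT3, the feedback inhibitor SOCS3, the transcription factor CEBPB, and IL4R, a receptor chain of interleukin-4 and interleukin-13. All 10 were found by symbol among the 14718 genes of the deposited table. The series models long QT syndrome in gene-edited pigs and sets 4 mutant animals against 4 wild-type (WT) animals. The genotype label of mutant replicates 1 to 3 names a KCNH2 mutation and that of mutant replicate 4 a KCNH3 mutation, while the series design names KCNH2 alone. WT replicates 1 to 4 carry the label wt. The labels give neither the allele nor sex, age, litter or batch, and nothing beyond separate pig numbers shows that the samples are independent, so p-values measure only the spread between these samples.

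Cytokines of the interleukin-6 family signal through receptor complexes that share the chain encoded by IL6ST. Interleukin-6 first binds its own receptor chain, IL6R, whereas leukaemia inhibitory factor (LIF) uses LIFR, and oncostatin M uses OSMR or, in humans, also LIFR, each paired with IL6ST. The complexes activate JAK kinases, which phosphorylate STAT3. STAT3 induces SOCS3, which binds back to the complex and damps the signal, and C/EBPβ, the product of CEBPB, acts beside STAT3 on acute phase genes. In the heart, signalling through the shared chain is known for its roles in myocyte survival, hypertrophy and the response to injury. No sequences of these genes are printed, since no sequence tables were used here.

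The libraries held 15.9 to 22.4 M recovered reads (M is the SI prefix mega). The 13 protein-coding mitochondrial genes took 15.9% to 27.5% of the reads in mutant libraries and 31.7% to 87.9% in WT libraries, without overlap. WT replicate 3 had only 2.53 M reads of nuclear genes, so that 1 read was worth 4.84 normalized counts there, against 0.611 to 1.21 in the other libraries. A normalized count is a gene's read count divided by the size factor of its library, as deposited by the authors. Cardiomyocyte markers were abundant in every library, and their summed normalized count was 767662 to 984625 in mutant libraries and 476358 to 728928 in WT libraries. In such bulk tissue, fewer cells of a type and less RNA per cell cannot be told apart.

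Across the family, a single WT heart stood apart from the other 7 libraries. WT replicate 2 had the highest value of 8 of the 10 genes, and WT replicate 4 that of the other two, IL6R and LIFR. For 6 of the 9 members that passed the filter on low values, WT replicate 2 held more than 2 times the value of every other library, which was so for 1.60% of the 11660 genes tested. LIF was among these 6 and passed that filter only through its value in WT replicate 2. IL6, which did not pass that filter, stood there at 362 times the highest other value. For CEBPB the ratio was 1.95. This measure was chosen after the values had been seen, and the choice of members with such results known makes it a description.

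**Figure D1:**
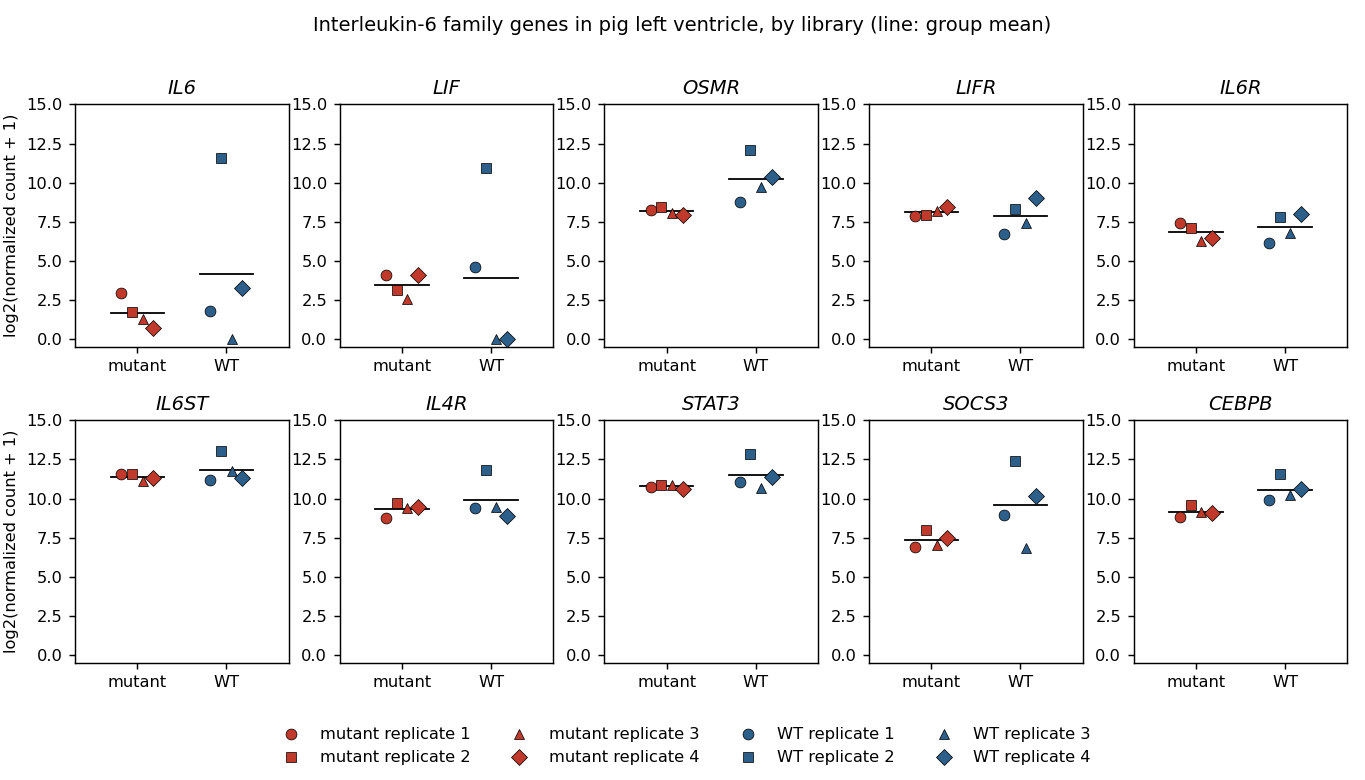
Normalized counts of the 10 members on the log2(normalized count + 1) scale in mutant and WT libraries, 1 point per library and a line at the group mean. The square of WT replicate 2 lies far above all other points for IL6 and LIF, while for OSMR and CEBPB all mutant points lie below all WT points.

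**Figure D2:**
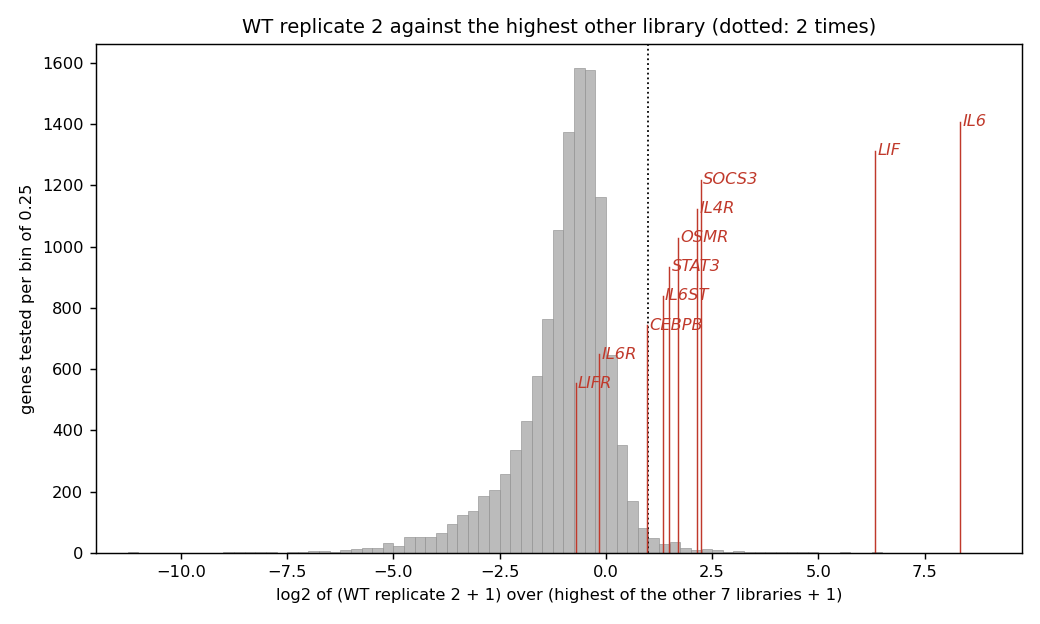
Value of WT replicate 2 relative to the highest of the other 7 libraries, as log2 of the ratio after adding 1 to each, for all genes tested (grey bars) and for the 10 members (red lines, IL6 included although it was not tested). The dotted line marks 2 times, which 1.60% of the genes tested exceeded.

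Outside that animal, IL6 was close to the detection limit and LIF had 0 to 23.8 normalized counts. IL6, an inflammatory cytokine made by many cell types, had 6.72, 2.28, 1.43 and 0.662 normalized counts in mutant replicates 1 to 4, against 2.38, 3077, 0 and 8.49 in WT replicates 1 to 4. In reads these were 11, 3, 2 and 1 in mutant libraries and 3, 3562, 0 and 7 in WT libraries. The groups overlapped, and 7 of the 8 libraries held 11 reads or fewer. The count of 0 in WT replicate 3 allows up to 14.5 normalized counts (3 reads), more than any library other than WT replicate 2 showed, so that its level could not be placed at this depth. IL6 had at least 10 normalized counts in 1 library only and therefore was not tested. The authors' deposited table lists a log2 fold change of -8.12 for it with no p-value, and a DESeq2 fit of the recovered reads without WT replicate 2 gave -0.53 ± 1.58 (SE; adjusted p = 0.898).

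LIF, a cytokine of the same family, had 15.9, 7.59, 5.01 and 15.9 normalized counts in mutant replicates 1 to 4, against 23.8, 1999, 0 and 0 in WT replicates 1 to 4. WT replicates held both the 2 highest and the 2 lowest values, although the counts of 0 allow up to 14.5 normalized counts in WT replicate 3 and 3.64 in WT replicate 4 (3 reads each). The log2 difference, mutant minus WT, was -0.44 ± 2.19 (SE; limma adjusted p = 0.934) and turned to 1.92 ± 1.44 (SE; limma adjusted p = 0.510) without WT replicate 2. The authors' deposited table gives no p-value for LIF either. In a DESeq2 fit of the recovered reads, IL6, LIF and IL4R were the members without a p-value, and for each of them the Cook's distance of WT replicate 2 (50.2, 49.7 and 15.1) exceeded the cutoff of 10.9.

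Among the receptor chains, OSMR separated the groups and the other 3 chains of the family did not. OSMR encodes the chain that oncostatin M binds together with the shared chain. Its normalized counts were 308, 347, 263 and 240 in mutant replicates 1 to 4, against 434, 4315, 838 and 1336 in WT replicates 1 to 4. All mutant values lay below all WT values, with WT replicate 1 nearest to them. The means were 289 ± 47.7 in mutant libraries and 1731 ± 1762 in WT libraries (SD, n = 4 each). OSMR differed by -2.07 ± 0.59 on the log2 scale (SE; limma adjusted p = 0.228), and it was -1.45 ± 0.38 (SE; limma adjusted p = 0.190) without WT replicate 2, when the groups still did not overlap. In the authors' deposited table OSMR fell in mutant libraries, with a log2 fold change of -2.58 (adjusted p = 0.00277).

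LIFR, the chain that binds LIF, had 235, 247, 292 and 342 normalized counts in mutant replicates 1 to 4, against 103, 311, 170 and 510 in WT replicates 1 to 4. The mutant libraries lay within the WT range. LIFR differed by 0.26 ± 0.46 on the log2 scale (SE; limma adjusted p = 0.797) and -0.12 without WT replicate 1. IL6R, which binds interleukin-6 itself, had 173, 136, 77.2 and 86.1 normalized counts in mutant replicates 1 to 4, against 70.7, 224, 107 and 249 in WT replicates 1 to 4. Here too the mutant values lay inside the WT range, and the log2 difference was -0.35 ± 0.49 (SE; limma adjusted p = 0.739), with -0.69 without WT replicate 1, -0.14 without WT replicate 2 and -0.090 without WT replicate 4. The value of WT replicate 3 rested on 22 reads, with an exact Poisson 95% interval of 66.8 to 161 normalized counts that covers counting error only.

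IL6ST, the chain shared by all these complexes, had 3029, 3026, 2243 and 2593 normalized counts in mutant replicates 1 to 4, against 2305, 8565, 3391 and 2493 in WT replicates 1 to 4. WT replicate 2 held 2.53 times the highest other value, and the remaining 7 libraries were interleaved. IL6ST differed by -0.41 ± 0.40 on the log2 scale (SE; limma adjusted p = 0.634) with all libraries and 0.0058 ± 0.26 (SE; limma adjusted p = 0.993) without WT replicate 2. IL4R, which pairs with other chains and signals mainly through STAT6, had 430, 825, 677 and 700 normalized counts in mutant replicates 1 to 4, against 682, 3675, 693 and 473 in WT replicates 1 to 4. Its log2 difference was -0.57 ± 0.57 (SE; limma adjusted p = 0.645) and 0.077 ± 0.29 (SE; limma adjusted p = 0.906) without WT replicate 2. In the RefSeq annotation of Sscrofa11.1, OSMR overlapped 2 other genes and IL6ST 1, and LIFR was not matched by symbol. No source used here states that counting was strand-specific, and reads of overlapping genes could then not be separated.

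Ratios of members within a library do not depend on how libraries are scaled. The ratio of OSMR to LIFR was 1.31, 1.41, 0.902 and 0.700 in mutant replicates 1 to 4, against 4.20, 13.9, 4.94 and 2.62 in WT replicates 1 to 4. The ratio of OSMR to IL6ST was 0.0924 to 0.117 in mutant libraries, against 0.188 to 0.536 in WT libraries. Neither ratio overlapped between the groups, with or without WT replicate 2. The ratios of IL6R and of IL4R to IL6ST overlapped, at 0.0332 to 0.0571 and 0.142 to 0.302 in mutant libraries, against 0.0261 to 0.0998 and 0.190 to 0.429 in WT libraries. These ratios compare libraries and not the levels of different genes, since no transcript lengths were used, and they were chosen after the values had been seen and were not tested.

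**Figure D3:**
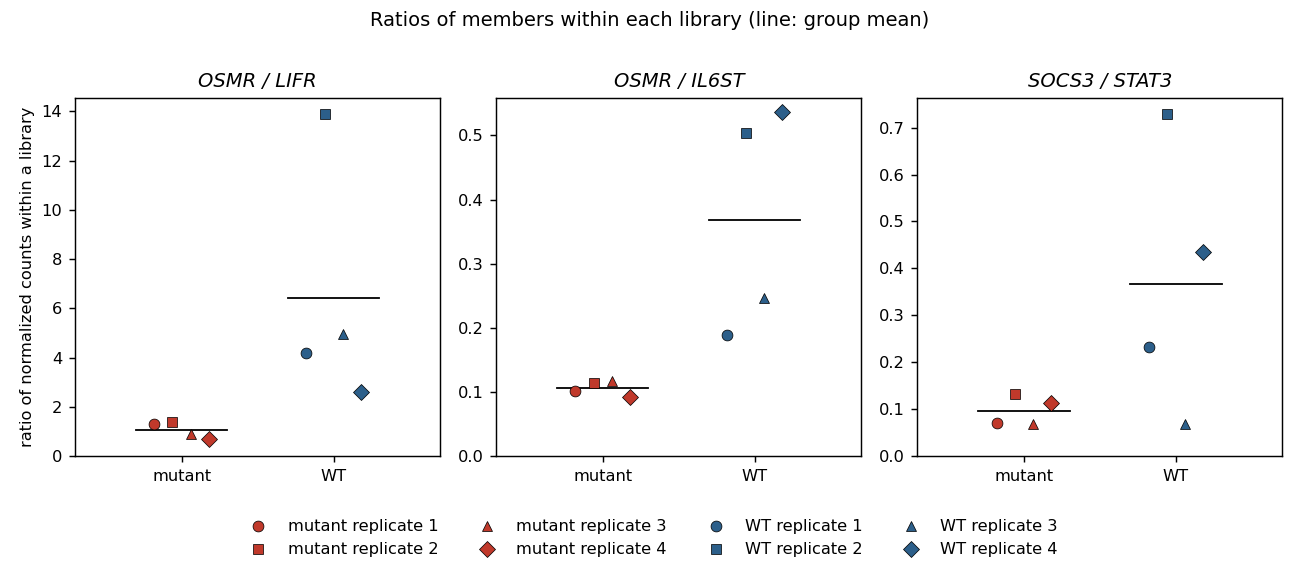
Ratios of normalized counts of OSMR to LIFR, OSMR to IL6ST and SOCS3 to STAT3 within each mutant and WT library, with a line at the group mean. All mutant libraries lie below all WT libraries for both OSMR ratios, and WT replicate 3 lies among the mutant libraries for SOCS3 to STAT3.

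The signal transducer STAT3 and its feedback inhibitor SOCS3 were both highest in WT replicate 2, and for both the overlap between the groups came from WT replicate 3. STAT3 had 1687, 1900, 1872 and 1548 normalized counts in mutant replicates 1 to 4, against 2126, 7386, 1613 and 2623 in WT replicates 1 to 4. Of the WT libraries only replicate 3, with 333 reads, lay within the mutant range. The log2 difference was -0.71 ± 0.42 (SE; limma adjusted p = 0.458) and -0.25 ± 0.25 (SE; limma adjusted p = 0.614) without WT replicate 2. The authors' deposited table gives -0.97 (adjusted p = 0.243).

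SOCS3 had 120, 253, 130 and 175 normalized counts in mutant replicates 1 to 4, against 497, 5388, 111 and 1143 in WT replicates 1 to 4. WT replicates 1, 2 and 4 lay above all mutant libraries and WT replicate 3 below them all. That value rested on 23 reads (exact Poisson 95% interval 70.6 to 167 normalized counts, counting error only), an interval that takes in mutant replicates 1 and 3. The means were 170 ± 60.4 in mutant libraries and 1785 ± 2439 in WT libraries (SD, n = 4 each). SOCS3 differed by -2.23 ± 0.96 on the log2 scale (SE; limma adjusted p = 0.342). It was -1.29 ± 0.70 (SE; limma adjusted p = 0.390) without WT replicate 2 and -3.15 without WT replicate 3. In the authors' deposited table SOCS3 fell in mutant libraries by 3.40 on the log2 scale (adjusted p = 0.00487), whereas a DESeq2 fit without WT replicate 2 gave -1.79 (adjusted p = 0.0886). The ratio of SOCS3 to STAT3 was 0.0714, 0.133, 0.0695 and 0.113 in mutant replicates 1 to 4, against 0.234, 0.729, 0.0691 and 0.436 in WT replicates 1 to 4.

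CEBPB also separated the groups, and its log2 difference had the smallest SE of the 9 tested members. It encodes a basic leucine zipper factor that is induced in inflammation. Its normalized counts were 443, 781, 551 and 541 in mutant replicates 1 to 4, against 954, 3015, 1187 and 1546 in WT replicates 1 to 4. All mutant values lay below all WT values. The means were 579 ± 143 in mutant libraries and 1675 ± 925 in WT libraries (SD, n = 4 each). The log2 difference was -1.42 ± 0.36 (SE; limma adjusted p = 0.217) and -1.09 ± 0.28 (SE; limma adjusted p = 0.189) without WT replicate 2. In the authors' deposited table CEBPB fell by 1.53 on the log2 scale (adjusted p = 0.0111). A DESeq2 fit without mutant replicate 4 gave -1.5 (adjusted p = 0.0975), and that fit called 128 genes over the table, against 582 with all libraries.

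No member passed over the table in limma at an adjusted p under 0.05, and no gene did (0% of 11660 tested), although 1616 genes had an unadjusted p under 0.05. Of the 9 tested members, 3 had an unadjusted limma p under 0.05 and a negative difference, against 6.80% of the genes tested. They were CEBPB, OSMR and SOCS3. With counts recovered as whole reads, edgeR found 0 of 11878 genes past the threshold and 1730 at an unadjusted p under 0.05, and DESeq2 found 582 past it. The authors' deposited table calls OSMR, SOCS3 and CEBPB lower among the 7 members with an adjusted p, against 3.23% of its genes called lower. DESeq2 on the recovered reads called the same 3 members (3.24% of genes lower). Without WT replicate 2 it called OSMR and CEBPB (3.70%), and without mutant replicate 4, the library labelled KCNH3, it called OSMR and SOCS3 (0.743% of genes lower).

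All mutant libraries lay below all WT libraries for 2 of the 9 tested members, OSMR and CEBPB, against 5.22% of the genes tested, and for both also without WT replicate 2 (7.84% of genes). Without WT replicate 3, SOCS3 and STAT3 joined them (4 members, against 8.05% of genes), and without WT replicates 3 and 4 so did LIF (5 members, 14.0% of genes). The log2 difference was negative for 8 of the 9 tested members, against 43.1% of genes, and for 5 of the 9 without WT replicate 2, against 42.8% of genes. The median over the 9 was -0.57, beside 0.12 over all genes tested, and -0.14 beside 0.14 without WT replicate 2. Like OSMR and CEBPB, the mitochondrial share of reads and the summed cardiomyocyte markers did not overlap between the groups, and their part in these differences was not tested. Scaled to reads of nuclear genes only, OSMR differed by -1.98 and CEBPB by -1.33, and the groups still did not overlap.

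**Figure D4:**
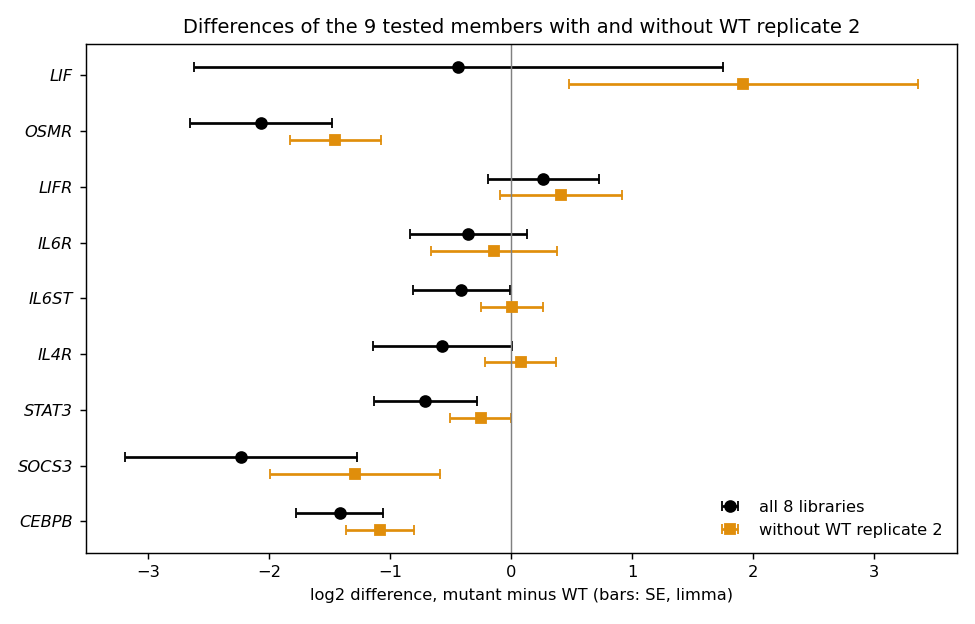
log2 difference, mutant minus WT, of the 9 tested members from limma with all 8 libraries (black circles) and without WT replicate 2 (orange squares), with SE bars. OSMR, SOCS3 and CEBPB stay below 0 in both fits, while IL6ST, IL4R and LIF move to or above 0 without that library.

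Neutrophil markers were likewise highest in WT replicate 2. Of 15 markers fixed for neutrophils, 11 were in the table, and their summed normalized count was 125 to 715 in mutant libraries, against 149, 2787, 203 and 388 in WT replicates 1 to 4. WT replicate 2 held 3.90 times the highest other sum. S100A12, a calcium-binding protein abundant in neutrophils, had 0.611 to 170 normalized counts in mutant libraries, against 55.6, 1220, 92.0 and 24.3 in WT replicates 1 to 4. None of the 11 was at 0 in every library, and the part of neutrophils in the values of the family was not tested. The 13 monocyte and macrophage markers in the table did not move that way, with sums of 1635 to 4592 in mutant libraries, against 943, 2203, 1875 and 5794 in WT replicates 1 to 4. Fibroblast sums were 31447 to 77723 in mutant libraries, against 10487 in WT replicate 2 and 8753 to 124844 in the other WT libraries. Endothelial sums were 21226 to 31205 in mutant libraries, against 13870 in WT replicate 2 and 13129 to 54121 in the other WT libraries. The summed T and NK cell markers (171 to 280 in mutant, 117 to 357 in WT libraries), B and plasma cell markers (13.2 to 102 in mutant, 39.7 to 93.4 in WT libraries) and smooth muscle and pericyte markers (15850 to 25143 in mutant, 12647 to 35535 in WT libraries) overlapped between the groups. Erythroid sums were 2529 to 3013 in mutant libraries, against 17949, 31848, 29120 and 49.7 in WT replicates 1 to 4. WT replicate 2 held 1.09 times the highest other sum, and WT replicate 4 lay below all mutant libraries. The part of erythroid cells in the values of the family was not tested.

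Other ligands of the family were mostly at low counts. The table held 8 of them, of which 4 were tested, 3 with a negative difference, and none passed limma. EBI3, a subunit shared by interleukin-27 and interleukin-35, had 11.0, 31.1, 20.0 and 19.2 normalized counts in mutant replicates 1 to 4, against 57.2, 98.5, 184 and 142 in WT replicates 1 to 4. CLCF1, a ligand of the ciliary neurotrophic factor receptor, had 11.6, 5.32, 3.58 and 5.30 normalized counts in mutant replicates, against 17.5, 27.6, 58.1 and 29.1 in WT replicates 1 to 4. For these 2 genes all mutant libraries lay below all WT libraries (5.22% of the genes tested), and WT replicate 2 was not the highest. CLCF1 rested on 5 to 19 reads in mutant libraries and 12 to 32 in WT libraries. Among mutant libraries only replicate 1 reached the 10 normalized counts of the filter, so CLCF1 passed it through its WT values. Its lack of overlap is therefore only a description. Log2 differences were -2.47 ± 0.59 for EBI3 and -2.17 ± 0.77 for CLCF1 (SE; limma adjusted p = 0.202 and 0.289). The authors' deposited table calls both lower (log2 fold change -2.54 and -2.27), among 6 of these ligands with an adjusted p. It calls 3.23% of its genes lower. CNTF, which uses the same receptor as CLCF1, differed by 0.38 ± 1.21 (SE) in limma, with 0 reads in WT replicate 3. Its sign depended on the method, since DESeq2 gave -0.68 ± 0.75 (SE) and the authors' deposited table -0.68. OSM, the ligand of OSMR, had 0 to 10 reads in mutant libraries and 2, 22, 0 and 12 reads in WT replicates 1 to 4, and IL11 had 42 reads in WT replicate 2 and at most 6 elsewhere.

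The partner chains and the shedding enzymes that release soluble receptors showed no such separation. Of 10 genes tested 3 had a negative difference and 7 a positive one (median 0.22), none passed limma, and none separated the groups. The smallest p belonged to ADAM17, which cleaves IL6R from the cell surface, with a log2 difference of 0.79 ± 0.38 (SE; limma adjusted p = 0.385). IL13RA2, a decoy receptor of interleukin-13, differed by 2.07 ± 1.35 (SE), and RHBDF2, which helps ADAM17 mature, by -0.63 ± 0.54 (SE). IL13RA2 had 0 reads in WT replicate 3 and 2 in WT replicate 4, and DESeq2 gave 0.52 ± 0.98 (SE) for it. Of 9 kinases and STATs tested, 7 had a negative difference (median -0.24), and none passed. STAT2, a transducer of interferon signals, had 335 to 364 normalized counts in mutant libraries, against 575, 808, 368 and 661 in WT replicates 1 to 4. Its log2 difference was -0.73 ± 0.27 (SE; limma adjusted p = 0.296). It was the 1 gene of these 9 with all mutant libraries below all WT libraries (5.22% of the genes tested). The highest mutant value, 364, lay close to the 368 of WT replicate 3, where 1 read was worth 4.84 normalized counts. STAT6 and the kinase gene TYK2 differed by -0.49 ± 0.32 and -0.60 ± 0.44 (SE). Of the 15 feedback and phosphatase genes 7 had a negative difference and 8 a positive one (median 0.03), and none passed. SOCS7 had 218 ± 49.9 normalized counts in mutant libraries and 94.7 ± 72.0 in WT libraries (SD, n = 4 each), a log2 difference of 1.42 ± 0.49 (SE; limma adjusted p = 0.280). SOCS7 was not called by DESeq2 when every library was kept (1.17, adjusted p = 0.179). Without WT replicate 2 the WT mean was 59.7 ± 21.0 (SD, n = 3). The difference was then 1.87 ± 0.39 (SE; limma adjusted p = 0.172). DESeq2 without that library called SOCS7 higher in mutant libraries (1.82, adjusted p = 0.00122), among 705 genes called in either direction. In that setting the median of the 15 genes was 0.24, 9 had a positive difference, and all mutant libraries lay above all WT libraries for 2 of them, SOCS7 and PTPN1 (9.01% of all genes), of which PTPN1 was named after its values had been seen. The medians of the receptor and shedding list and of the kinases and STATs were then 0.10 and -0.11. The phosphatase genes PTPN2 and PTPN6 differed by -0.87 ± 0.47 and 1.93 ± 1.26 (SE). For these 2 genes the authors' deposited table gives -1.17 and 0.80 (adjusted p = 0.189 and 0.528). WT replicate 2 was the highest library for 5 of these 15 genes and for 3 of the 10 kinases and STATs in the table.

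Most textbook target genes of STAT3 and C/EBP factors had a negative difference, mutant minus WT. Of 19 tested, 16 had a negative difference and 3 a positive one, with a median of -1.67 beside 0.12 over all genes. None passed limma, 8 had an unadjusted p under 0.05 and a negative difference (6.80% of all genes), and the authors' deposited table calls 9 of the 17 with an adjusted p lower (3.23% of its genes). For 5 genes all mutant libraries lay below all WT libraries (5.22% of all genes). They were the transcription factor genes MYC, JUNB and NFIL3, the kinase gene PIM1 and the metalloproteinase inhibitor gene TIMP1, with log2 differences of -2.62 ± 0.47, -2.60 ± 0.53, -2.06 ± 0.49, -2.19 ± 0.56 and -1.99 ± 0.70 (SE). For 14 of the 19, WT replicate 2 was the highest library (12.3% of all genes). In 8 of them it held more than 2 times the value of every other library (1.60% of all genes). Without WT replicate 2 the median of the 19 was -0.95, 15 had a negative difference, and 6 genes did not overlap and were lower (7.84% of all genes). Several of these genes respond to many stimuli and earlier results of these data were known when the list was written, so it is not independent evidence of its direction.

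**Figure D5:**
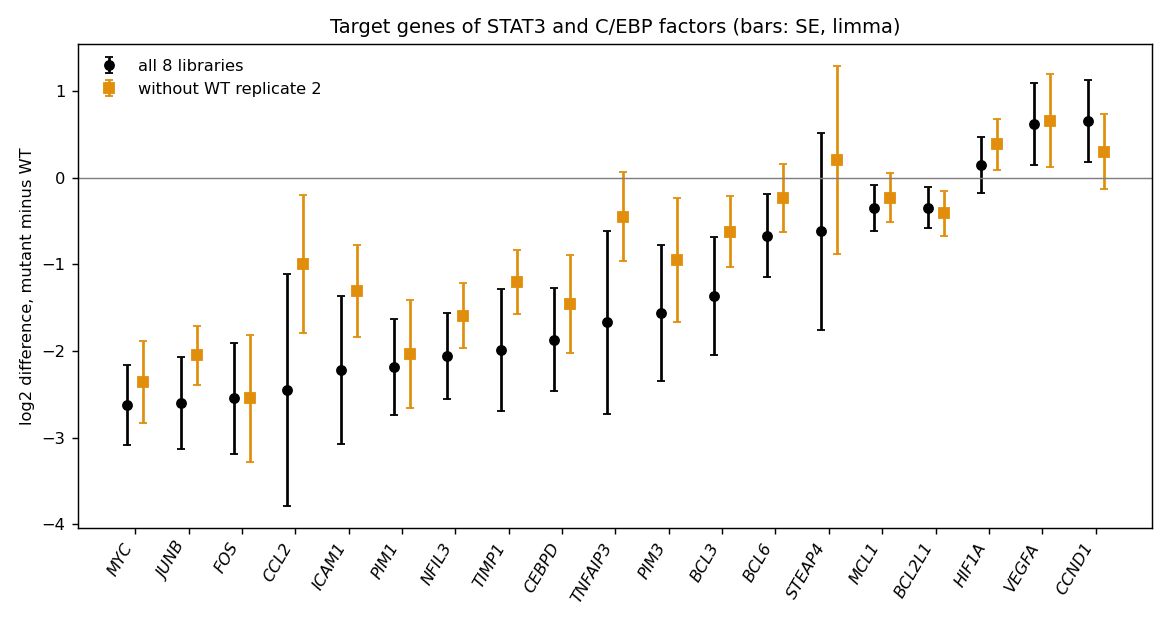
log2 difference, mutant minus WT, with SE bars for the 19 tested target genes of STAT3 and C/EBP factors, with all 8 libraries (black circles) and without WT replicate 2 (orange squares). Most points lie below 0 in both fits, and CCL2, ICAM1 and TNFAIP3 move furthest towards 0 without that library.

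Acute phase genes, whose products are mostly made by the liver, mostly lay below the filter on low values. The table held 11 of them, of which 4 were tested, 3 with a negative difference (median -1.45), and none passed limma. ITIH4 and LCN2 differed by -1.41 ± 0.65 and -1.48 ± 0.96 (SE). Of the other C/EBP genes 5 were tested, 4 with a negative difference (median -0.44). CEBPD, often induced together with CEBPB, had 505, 2060, 1589 and 1086 normalized counts in mutant replicates 1 to 4, against 1645, 10021, 3226 and 6056 in WT replicates 1 to 4, with overlap at WT replicate 1 and a log2 difference of -1.87 ± 0.60 (SE; limma adjusted p = 0.258). CEBPD is called lower in the authors' deposited table, with a log2 fold change of -2.0 (adjusted p = 0.0240), and a DESeq2 fit without WT replicate 2 gave -1.47 (adjusted p = 0.110). DDIT3 and CEBPZ differed by -0.86 ± 0.42 and -0.40 ± 0.29 (SE).

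Genes with the most similar pattern over the 8 libraries were found by the mean absolute difference of log2 values, each taken from its gene's own mean, among 10138 genes with a mean of at least 50 normalized counts. Nearest to SOCS3 were TIFA (0.36), SPIDR (0.55) and CD40 (0.59). Nearest to OSMR were NFIL3 (0.26), CSF1 (0.28) and ZC3H12A (0.29). Nearest to CEBPB were IL17RA (0.18), SIK1 (0.20) and CCDC9 (0.21). The nearest other member was OSMR for SOCS3 (rank 20), CEBPB for OSMR (rank 25) and STAT3 for CEBPB (rank 64). The reverse ranks were lower, with SOCS3 at 367 for OSMR and OSMR at 435 for CEBPB. SOCS3 ranked 5721 for CEBPB. LIFR ranked 4249 for SOCS3, 4136 for OSMR and 5733 for CEBPB. For the same 3 genes IL6 ranked 5461, 8861 and 9878, and LIF 8705, 9754 and 10040. These distances describe the same libraries that separate WT replicate 2 and were not tested.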

How the data were processed

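RNA of left ventricular tissue from 4 mutant and 4 WT pigs was TRIzol-extracted and poly(A)-selected, per the labels' protocols. The deposited table holds, per the file headers and values, a signal per gene and library: the authors' read count divided by a size factor. Per the file headers it also holds the authors' log2 fold change, standard error of that, adjusted p-value, p-value and test score. Per the submitters' processing notes DESeq2 was used (no version) and the build is GRCh38, although the samples are porcine; hence no coordinates are given. No source used here names the aligner, counter or annotation.

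Whole reads were recovered from 100% of values (tolerance 1e-06), at 15.9 to 22.4 M reads per library. Of 14720 rows, 2 without a gene name, with 0.392% to 0.853% of a library's reads, were left out. Genes reaching a normalized count of 10 in 4 or more libraries (11660) were tested as log2(normalized count + 1) with limma 3.58.1 (trended, robust prior; R 4.3.3), mutant minus WT, with Benjamini-Hochberg adjustment over all of them; on this scale changes of low genes come out too small. Recovered reads were tested with edgeR 4.0.16 and DESeq2 1.42.0. The main limma, edgeR and DESeq2 fits of all libraries were tested on simulated data that held no outlying library. The alternatives below were not tested in that way. Leaving out libraries, scalings, pseudocounts, filters and priors were varied. Intervals and floors (3 reads) cover counting error only. The members, lists and alternatives were chosen with earlier results of these data known. Named genes are all members, up to 3 genes with the smallest p and the non-overlapping genes of each pathway list, the most abundant markers of a list described, and the 3 genes nearest to SOCS3, OSMR and CEBPB. A gene that this rule names is not reported here.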

Additional observations from a re-analysis of the deposited data

Results flagged for a closer look

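WT replicate 2 stood far above the other WT libraries for 3 members, by the gap to its nearest neighbour relative to the range of its group (Dixon's test at the 95% level). IL6 was 3077 normalized counts there, and 8.49 in the next highest WT library. LIF was 1999, and the next highest WT value was 23.8. IL4R was 3675, and the next highest WT value was 693. The 10 members gave 20 groups of 4. A chance rate of about 1 in 20 at either end would hold for independent groups of normally distributed values. These groups share libraries, hold untransformed counts and were chosen with earlier results known, so the flags are a description.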

How the results depend on the processing

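OSMR, SOCS3, STAT3, CEBPB and IL6R kept a negative difference under every alternative run, OSMR between -1.41 and -2.58, SOCS3 between -1.29 and -3.41 and CEBPB between -1.08 and -1.64. IL4R, IL6ST and LIF turned positive whenever WT replicate 2 was absent. IL4R was 0.077 without it, 0.17 without WT replicates 2 and 3 and 0.10 in DESeq2 without it, IL6ST was 0.0058, 0.17 and 0.0020, and LIF was 1.92, 1.14 and 0.36. LIFR turned to -0.12 without WT replicate 1 and to -0.091 in DESeq2 without mutant replicate 4. With 1 library left out at a time, IL4R ranged from -0.91 to 0.077, IL6ST from -0.63 to 0.0058, LIF from -1.74 to 1.92, IL6R from -0.69 to -0.090 and LIFR from -0.12 to 0.65; 5 to 9 tested members had a negative difference, 2 to 4 lay below WT without overlap, and limma called 0 to 3 genes over the table. Without WT replicates 2 and 3, 5 members had a negative difference and 4 lay below without overlap (as did 1514 of the 11660 genes tested), and without WT replicates 3 and 4, 5 did. Over the table, limma called 3 genes after quantile rescaling, 92 with array quality weights and 12 without WT replicates 3 and 4, while DESeq2 called 582, or 705 without WT replicate 2 and 128 without mutant replicate 4. DESeq2 called 3 members, and 2 without either of those libraries. Limma called no member in any of these fits. The causes were not tested. No paired analysis was possible because the groups share no pig numbers. WT replicate 3, with the fewest nuclear reads, limits what can be said of IL6, LIF, IL6R, LIFR and SOCS3.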
